A study of Mus musculus with 30 samples.

Results

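The 10 genes described here belong to the neuronal cytoskeleton and its surroundings and were followed across cultured mouse telencephalon with and without Xbp1 and with and without brain-derived neurotrophic factor (BDNF). They were the neurofilament subunit genes Nefl, Nefm and Nefh, the related neuronal intermediate filament genes Ina and Prph, the axon growth genes Gap43 and Stmn2, the microtubule genes Mapt and Tubb3, and Eno2, the neuronal enolase. Members were chosen by name: every probe set that the platform annotation assigns to one of these symbols was taken. This gave 18 probe sets for the 10 genes, out of 12394 genes measured, and 9 of the 10 genes were among the 7436 bright enough to be tested. Cells came from the telencephalon, the forebrain region that forms cortex and basal ganglia, at embryonic day 12.5. A pool of 6 Xbp1 -/- embryos (knockout) and a pool of 4 Xbp1 +/+ embryos (wild type) were each divided over 15 dishes and grown at low density in serum-free Neurobasal medium with B27. On day 3 of culture BDNF, at 100 ng/ml, was given to 20 of the 30 dishes. The 6 groups were knockout basal, knockout with 24 h of BDNF, knockout with 48 h of BDNF, wild-type basal, wild type with 24 h of BDNF and wild type with 48 h of BDNF, with 5 dishes in each and 1 array per dish. Basal and 24 h dishes were lysed on day 4 and 48 h dishes on day 5, so the 48 h groups differed from the basal groups in BDNF and in culture age together. Because each genotype was 1 pool, genotype and pool cannot be told apart, and every p-value measures the spread between dishes of a pool.

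Neurofilaments are intermediate filaments that fill the axon and set its calibre. NEFL, NEFM and NEFH co-assemble, and NEFL forms the core of the filament on which the long-tailed NEFM and NEFH subunits depend. Alpha-internexin, encoded by Ina, is known as the neuronal intermediate filament protein that appears early in the developing brain, before the neurofilament triplet is abundant, and peripherin, encoded by Prph, is found mainly in peripheral and spinal motor neurons. GAP43 and stathmin 2 act in the growth cone, tau (Mapt) binds microtubules, and class III beta-tubulin (Tubb3) marks postmitotic neurons. Enolase switches to the neuronal isoform Eno2 as neurons mature, and BDNF acts on neurons through the receptor tyrosine kinase TrkB.

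Array medians before scaling ranged from 81.9 to 138 intensity units. For Gapdh, the signal of the 3' over that of the 5' control probe set, which depends on how intact and how fully copied the RNA is, was 2.17 to 2.68 on 48 h arrays and 2.57 to 3.05 on the others. Replicates 3 to 5 of both 48 h groups stood apart: the ratio of the upper to the lower quartile of their signals was 24.4 to 28.2, against 17.3 to 21.3 on the remaining arrays. Some results at 48 h are therefore also given below without these dishes: the rises over basal, several second-day differences, wild-type Mapt and the Eno2 difference between genotypes. Counts and sums of the gene lists at 48 h use all dishes. Of 14 measured neuronal genes outside the cytoskeleton 13 were bright enough to be tested. The endothelial genes Pecam1 and Cdh5 lay at the floor of the scale in 28 and 17 of 30 dishes and the oligodendrocyte gene Mog in 29. Other genes of these cells were not so low. The endothelial gene Kdr was never at the floor, and the oligodendrocyte genes Mbp, Cnp and Olig1 were bright enough to be tested. The vascular and meningeal genes Col1a2 and Acta2 had median log2 signals of 6.02 and 5.58. Xbp1 mRNA was read in both genotypes, at 4.65, 4.62 and 4.74 in knockout basal, 24 h and 48 h dishes and 4.43, 4.55 and 4.64 in wild type (mean log2 signal of the brightest probe set). It was higher in the knockout without BDNF, by 0.22 (limma adjusted p = 0.00498), and did not pass at 24 h (0.07, adjusted p = 0.370) or 48 h (0.10, adjusted p = 0.233). A dimmer Xbp1 probe set read 2.63 to 2.92 in the dishes labelled knockout, above all dishes labelled wild type at 1.23 to 2.07. The remaining Xbp1 probe sets overlapped between the genotypes. One read 3.76 to 4.17 in knockout and 3.59 to 4.16 in wild-type dishes, and the other -1.02 to 0.11 and -0.92 to 0.29. The part of the gene removed by the allele is not given in the sources used here, so these probes do not check the labels, and every direction between the genotypes rests on the labels.

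Signals are given as the log2 of the signal over the median of the same array, so 0 is the array median, and can be compared between dishes but not between genes. Nefl, Nefm, Nefh and Eno2 were the genes whose group means spread widely, over 1.37, 1.52, 1.21 and 1.56 log2 units. Ina spanned 0.40, and Gap43, Stmn2, Mapt and Tubb3 spanned 0.17 to 0.26. For Nefl and Nefm the order from high to low was knockout 48 h, wild type 48 h, knockout 24 h, wild type 24 h, knockout basal and wild-type basal. In that order only the step between wild type at 24 h and knockout basal was free of overlap, with 0.79 for Nefl and 0.95 for Nefm. Neighbours on either side of that step overlapped in their dishes. Nefh followed the order knockout 48 h, wild type 48 h, knockout 24 h, knockout basal, wild type 24 h and wild-type basal, with overlap at all 5 steps. Eno2 ran from wild type 48 h through knockout 48 h, wild type 24 h, knockout 24 h and wild-type basal to knockout basal, and its single step without overlap was the 0.68 between knockout 24 h and wild-type basal.

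**Figure D1:**
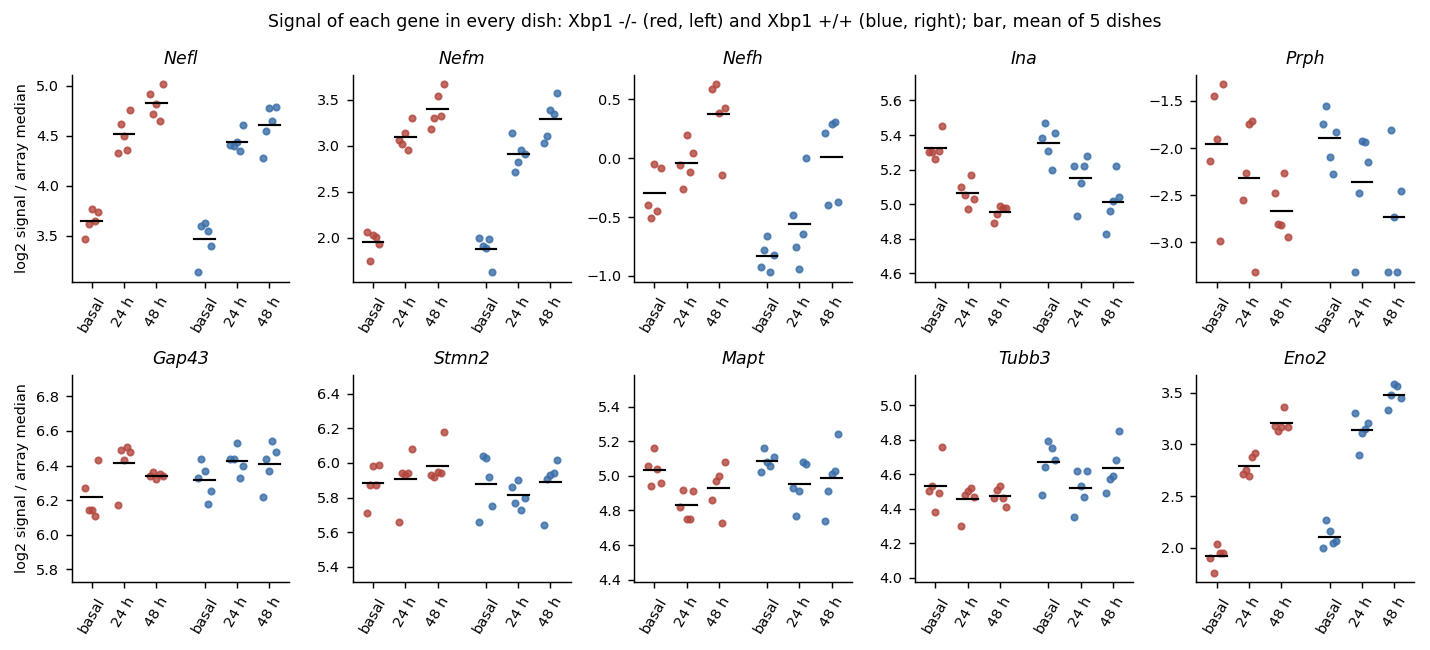
Log2 signal over the array median (vertical axis) of each of the 10 genes in every dish, by genotype and hours of BDNF; red points are Xbp1 -/- dishes, blue points Xbp1 +/+ dishes and bars means of 5. Nefl, Nefm and Eno2 at 24 h and 48 h lie above all basal dishes of their genotype, and Ina lies lower with BDNF.

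Promoter sequence, from 250 bases before to 50 after the annotated start, was at hand in the RefSeq table (GRCm38.p6) for 4 members, Ina, Prph, Tubb3 and Eno2. The 3 printed are one gene that fell with BDNF (Ina), one that did not pass the test (Tubb3) and one that rose (Eno2). Capitals mark matches to the GC box (GGGCGG), the TATA box (TATAAA) or the CCAAT box (CCAAT) on either strand. The sequences run 5' to 3' along the gene.
Ina, chr19:47014431-47014730, plus strand: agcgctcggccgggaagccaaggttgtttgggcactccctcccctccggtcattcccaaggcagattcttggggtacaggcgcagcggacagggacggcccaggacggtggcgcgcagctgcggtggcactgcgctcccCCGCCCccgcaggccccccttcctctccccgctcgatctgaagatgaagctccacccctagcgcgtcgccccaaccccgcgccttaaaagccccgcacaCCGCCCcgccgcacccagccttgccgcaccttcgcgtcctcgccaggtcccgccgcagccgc
Tubb3, chr8:123411303-123411602, plus strand: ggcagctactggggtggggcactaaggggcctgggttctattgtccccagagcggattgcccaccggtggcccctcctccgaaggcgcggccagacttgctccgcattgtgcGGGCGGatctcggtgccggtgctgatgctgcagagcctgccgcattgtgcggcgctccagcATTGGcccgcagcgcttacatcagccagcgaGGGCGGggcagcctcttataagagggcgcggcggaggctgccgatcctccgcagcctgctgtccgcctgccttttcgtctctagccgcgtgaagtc
Eno2, chr6:124769624-124769923, minus strand: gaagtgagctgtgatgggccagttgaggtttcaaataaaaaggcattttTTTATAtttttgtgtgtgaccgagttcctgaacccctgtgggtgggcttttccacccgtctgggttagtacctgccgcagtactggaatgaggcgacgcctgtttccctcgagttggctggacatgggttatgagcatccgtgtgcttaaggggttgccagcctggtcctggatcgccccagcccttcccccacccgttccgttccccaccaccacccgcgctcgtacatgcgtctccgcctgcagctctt
The Ina window held 71.7% G and C with GC boxes beginning at -111 and -12. Tubb3 held 67.3% with GC boxes at -138 and -46 and a CCAAT box at -77. Eno2 held 56.3%, no GC box, and a TATA match on the opposite strand at -201, far from the usual place of that element. The Prph window, not printed, had 64.7% G and C, a TATA match at -31 and a GC box at -24. Over 32851 promoters of this length the median was 52.7%, and 35.7% held a GC box, 13.6% a TATA match and 37.4% a CCAAT box. None of the 4 windows held the cAMP response element core TGACG, the AP-1 site TGANTCA or the EGR core GTGGGCG, which 20.8%, 7.81% and 7.97% of all promoters hold. These matches describe letters in a window and no bound factor.

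The first comparison asked how BDNF altered these genes in each genotype. After 24 h, Nefl, Nefm and Eno2 rose about 2-fold in both genotypes, Ina fell in both, and Gap43 rose in the knockout. In the knockout 5 of 9 tested members passed the test, 4 up and 1 down; of all tested genes 11.5% were called, 5.96% up and 5.55% down. In wild type 4 passed, 3 up and 1 down, where 14.4% of all genes were called, 8.04% up and 6.40% down. After 48 h Nefh was added to the rising genes and 5 of 9 passed in each genotype, 4 up and 1 down. At that time 28.9% of all genes were called in the knockout, 19.4% up and 9.47% down, and 36.2% in wild type, 20.5% up and 15.7% down. The members' median log2 difference at 24 h was 0.20 in the knockout and 0.11 in wild type, and over all genes it was 0.005 and 0.006. At 48 h it was 0.12 and 0.09, over all genes 0.045 and 0.023. The split of all calls moved with the scaling: with median scaling 67.2% of the called genes were higher at 48 h in the knockout and 56.6% in wild type, against 47.6% and 42.7% by quantile normalization and 98.8% and 97.9% in the signals as deposited. In bulk RNA, more cells of a type and more RNA per cell cannot be told apart.

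**Figure D2:**
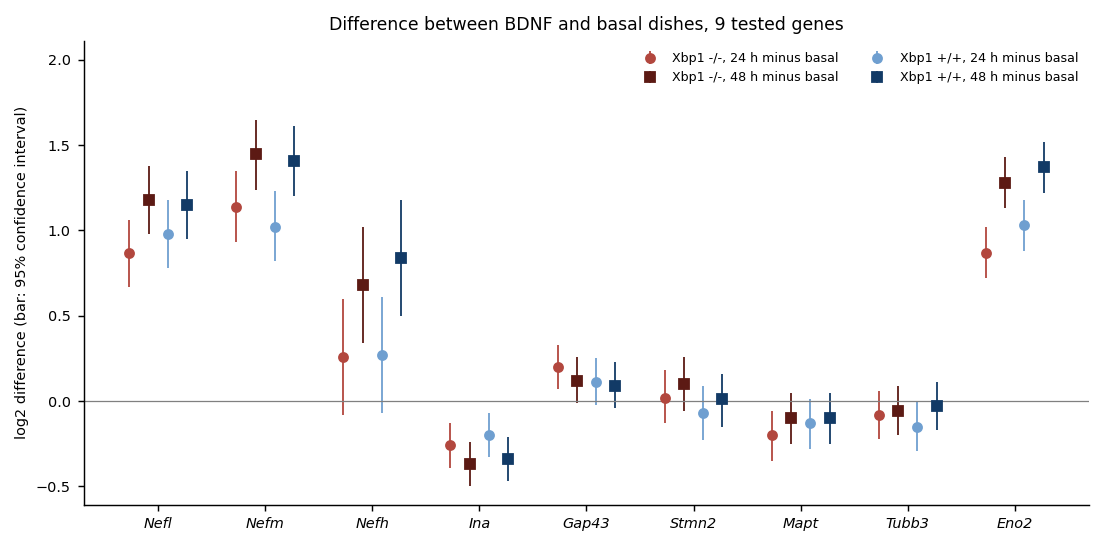
Log2 difference between BDNF and basal dishes (vertical axis, bars 95% confidence intervals) for the 9 tested genes; red shades are Xbp1 -/-, blue shades Xbp1 +/+, circles 24 h and squares 48 h. Nefl, Nefm and Eno2 lie between 0.87 and 1.45 in both genotypes, Nefh is past the threshold at 48 h, and Ina lies below 0.

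Nefl, which encodes the light neurofilament subunit, read 3.47, 3.62, 3.77, 3.65 and 3.74 in the 5 knockout basal dishes, 4.33, 4.62, 4.50, 4.36 and 4.76 after 24 h and 4.92, 4.72, 4.82, 4.65 and 5.02 after 48 h. Wild-type dishes read 3.13, 3.60, 3.63, 3.55 and 3.40 without BDNF, 4.41, 4.40, 4.44, 4.35 and 4.61 after 24 h and 4.28, 4.55, 4.78, 4.65 and 4.79 after 48 h. Every dish with BDNF was above every basal dish of its genotype, and the 24 h and 48 h dishes overlapped. In the knockout the log2 difference from basal was 0.87 ± 0.10 at 24 h (1.82-fold, limma adjusted p = 8.06e-08) and 1.18 ± 0.10 at 48 h (2.27-fold, adjusted p = 3.74e-11). In wild type it was 0.98 ± 0.10 at 24 h (1.97-fold, adjusted p = 4.02e-09) and 1.15 ± 0.10 at 48 h (2.22-fold, adjusted p = 5.47e-11). Differences are given ± SE, with 5 dishes per group.

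Nefm, the medium subunit and the chromosomal neighbour of Nefl on chromosome 14 with no protein-coding gene between them, read 2.06, 1.74, 2.03, 2.01 and 1.93 in knockout basal dishes, 3.06, 3.02, 3.14, 2.95 and 3.30 after 24 h and 3.18, 3.30, 3.54, 3.32 and 3.67 after 48 h. In wild type the values were 2.00, 1.91, 1.89, 1.98 and 1.62 without BDNF, 3.14, 2.71, 2.82, 2.95 and 2.91 after 24 h and 3.03, 3.10, 3.39, 3.34 and 3.57 after 48 h. As for Nefl, no dish with BDNF overlapped the basal dishes. Nefm had the largest difference of the 9 tested members in the knockout at 24 h and in both genotypes at 48 h. It rose by 1.14 ± 0.10 at 24 h (2.20-fold, adjusted p = 4.33e-10) and 1.45 ± 0.10 at 48 h (2.73-fold, adjusted p = 8.09e-13) in the knockout. Wild-type Nefm rose by 1.02 ± 0.10 (2.03-fold, adjusted p = 4.02e-09) and 1.41 ± 0.10 (2.65-fold, adjusted p = 1.27e-12). By size of change Nefm ranked 20 and 18 among the 7436 genes in the knockout and 35 and 25 in wild type, at 24 h and 48 h.

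Nefh, the heavy subunit, which joins neurofilaments late in axon maturation, gave a signal near the array median. In the knockout it read -0.40, -0.51, -0.05, -0.45 and -0.08 without BDNF, -0.06, -0.26, 0.20, -0.12 and 0.04 after 24 h and 0.59, 0.63, 0.38, -0.14 and 0.43 after 48 h. In wild type it read -0.92, -0.78, -0.66, -0.97 and -0.82 without BDNF, -0.48, -0.75, -0.94, -0.64 and 0.00 after 24 h and 0.21, -0.40, 0.29, 0.31 and -0.37 after 48 h. Its dishes varied more than those of Nefl and Nefm, and knockout basal and 48 h dishes overlapped through replicate 4, while wild-type basal and 48 h dishes did not. The 24 h differences, 0.26 ± 0.17 in the knockout and 0.27 ± 0.17 in wild type, did not pass (adjusted p = 0.345 and 0.294). At 48 h Nefh rose by 0.68 ± 0.17 in the knockout (1.60-fold, adjusted p = 0.00257) and by 0.84 ± 0.17 in wild type (1.79-fold, adjusted p = 2.20e-04).

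Ina fell in both genotypes. It read 5.30, 5.30, 5.26, 5.31 and 5.45 in knockout basal dishes, 5.10, 5.05, 4.97, 5.17 and 5.03 after 24 h and 4.89, 4.94, 4.99, 4.98 and 4.98 after 48 h. Wild-type dishes read 5.38, 5.47, 5.31, 5.20 and 5.41 without BDNF, 5.22, 4.93, 5.12, 5.22 and 5.28 after 24 h and 4.83, 4.96, 5.02, 5.22 and 5.04 after 48 h. Knockout dishes with BDNF all lay below the basal ones, while the wild-type groups overlapped at both times. The log2 difference was -0.26 ± 0.06 at 24 h (adjusted p = 0.00733) and -0.37 ± 0.06 at 48 h (adjusted p = 6.77e-05) in the knockout. In wild type it was -0.20 ± 0.06 (adjusted p = 0.0321) and -0.34 ± 0.06 (adjusted p = 1.17e-04). The calls depended on the scaling, and none passed in the signals as deposited, without division by the array median. There the 24 h differences were -0.20 in each genotype (adjusted p = 0.280 in the knockout and 0.250 in wild type). The wild-type value at 24 h was the same as with median scaling, but its SE was 0.09 against 0.06. The 48 h differences shrank to -0.12 and -0.03 (adjusted p = 0.276 and 0.808). The median of all genes at 48 h then stood at 0.293 and 0.335, so the fall of Ina at 48 h is relative to the other genes on the array.

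Ina has 3 probe sets, and when each of 12236 bright probe sets was tested on its own, the other Ina probe sets gave the same direction. Probe set 1418178_at differed from basal by -0.15 and -0.38 in the knockout at 24 h and 48 h (adjusted p = 0.166 and 1.05e-04) and by -0.41 and -0.43 in wild type (adjusted p = 8.02e-05 and 1.09e-05). Probe set 1448992_at differed by -0.27 and -0.35 in the knockout and by -0.21 and -0.26 in wild type, all past the threshold. Of the 12 differences of Ina from basal over 3 probe sets, 11 passed.

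**Figure D3:**
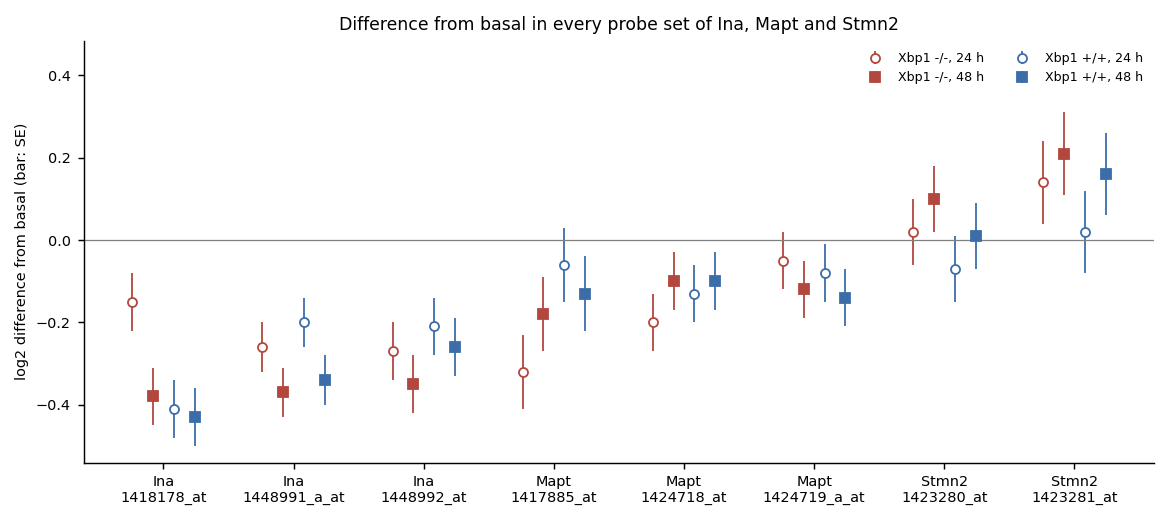
Log2 difference from basal (vertical axis, bars SE) in every probe set of Ina, Mapt and Stmn2; red is Xbp1 -/-, blue Xbp1 +/+, open circles 24 h and filled squares 48 h. All Ina values lie between -0.43 and -0.15, the Mapt values between -0.32 and -0.05, and the Stmn2 values between -0.07 and 0.21.

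Prph was at the bottom of the scale. Its brightest probe set averaged -1.96, -2.32 and -2.66 in knockout basal, 24 h and 48 h dishes and -1.90, -2.36 and -2.73 in wild type, and 4 of 30 dishes were at the floor of 0.1 of the array median. The other 3 probe sets were dimmer. Prph did not pass the brightness filter and has no call in the comparisons above. With no filter, none of its 11 comparisons passed in limma. The lowest adjusted p was 0.077, for a difference of -0.83 ± 0.34 between 48 h of BDNF and basal in wild type. Of 6 measured genes of peripheral and sensory neurons, Phox2a, Ret, Dbh and Scn10a also failed the filter, Scn10a at the floor in 23 of 30 dishes, while Th had a median of 0.06 and Isl1, which striatal neurons make too, of 2.07.

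The growth cone and microtubule members stayed within narrow limits. Gap43, a membrane-attached growth cone protein, read 6.27, 6.14, 6.14, 6.11 and 6.43 in knockout basal dishes and 6.17, 6.49, 6.43, 6.51 and 6.48 after 24 h. The groups overlapped, with replicate 1 low among the 24 h dishes and replicate 5 high among the basal ones. Gap43 rose by 0.20 ± 0.06 (1.15-fold, adjusted p = 0.0410), a call that was lost under 4 of 11 alternatives (0.20 to 0.26, adjusted p = 0.0521 to 0.139) and in 7 of 30 fits that each left out 1 dish (0.17 to 0.20, adjusted p = 0.0723 to 0.116). Those dishes were knockout basal replicates 2, 3 and 4 and knockout 24 h replicates 2, 3, 4 and 5. Its other differences from basal were 0.12 in the knockout at 48 h and 0.11 and 0.09 in wild type at 24 h and 48 h, none past the threshold (adjusted p = 0.149, 0.248 and 0.264). Both 48 h differences passed by quantile normalization, at 0.22 and 0.17. They also passed in the signals as deposited, at 0.37 in the knockout and 0.41 in wild type (adjusted p = 0.00197 and 5.86e-04). The median of all genes there was 0.293 and 0.335.

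Stmn2, which encodes a tubulin-binding protein of growing axons, did not pass in any of these comparisons with median scaling. Its 30 dishes lay between 5.64 and 6.18. The differences from basal were 0.02 and 0.10 in the knockout and -0.07 and 0.01 in wild type at 24 h and 48 h, with 95% intervals reaching from -0.23 at the lowest to 0.26 at the highest. By quantile normalization the knockout difference at 48 h was 0.15 and passed (adjusted p = 0.0421). In the signals as deposited both 48 h differences passed, at 0.35 in the knockout and 0.32 in wild type (adjusted p = 0.00541 and 0.00745). The median of all genes there was 0.293 and 0.335. The second Stmn2 probe set gave 0.14, 0.21, 0.02 and 0.16 in the same order, none past the threshold.

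Tubb3 lay between 4.30 and 4.85 and Mapt between 4.73 and 5.24. By quantile normalization Tubb3 passed in the knockout at 48 h with -0.16 and in wild type at 24 h with -0.18. With median scaling Tubb3 differed from basal by -0.08 and -0.06 in the knockout and by -0.15 and -0.03 in wild type (adjusted p = 0.522, 0.571, 0.159 and 0.774). Mapt differed by -0.20 and -0.10 in the knockout and by -0.13 and -0.10 in wild type (adjusted p = 0.0667, 0.305, 0.223 and 0.279). Knockout Mapt read 4.82, 4.92, 4.75, 4.75 and 4.91 at 24 h, below all basal dishes at 5.06, 4.94, 5.16, 5.04 and 4.96. One of its other probe sets, 1417885_at, passed at 24 h in the knockout with -0.32 ± 0.09 (adjusted p = 0.0197), and 1424719_a_at did not with -0.05 (adjusted p = 0.708). None of the 3 passed in wild type with all dishes. With 48 h replicates 1 and 2 alone, the brightest Mapt probe set passed in wild type at 48 h, with -0.26 (adjusted p = 0.028). Scaling mattered for Mapt: by quantile normalization it fell in the knockout by 0.20 at 24 h and 0.16 at 48 h and in wild type by 0.16 at 48 h, all past the threshold.

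Eno2, the glycolytic enolase of neurons, read 1.90, 1.76, 2.04, 1.95 and 1.95 in knockout basal dishes, 2.71, 2.75, 2.69, 2.88 and 2.92 after 24 h and 3.18, 3.13, 3.17, 3.36 and 3.17 after 48 h. The wild-type values were 2.00, 2.27, 2.16, 2.05 and 2.07 without BDNF, 3.30, 2.90, 3.11, 3.15 and 3.21 after 24 h and 3.33, 3.48, 3.58, 3.56 and 3.45 after 48 h. The 3 times formed separate bands without overlap in each genotype. It rose by 0.87 ± 0.07 at 24 h (1.83-fold, adjusted p = 1.56e-10) and 1.28 ± 0.07 at 48 h (2.43-fold, adjusted p = 5.25e-15) in the knockout. Wild-type Eno2 rose by 1.03 ± 0.07 (2.04-fold, adjusted p = 2.17e-12) and 1.37 ± 0.07 (2.59-fold, adjusted p = 8.20e-16). Among 13 other tested glycolysis genes 1 rose at 24 h in each genotype, Aldoa by 0.32 in the knockout and 0.38 in wild type. That count is near the share of all genes called as rising at 24 h, 5.96% in the knockout and 8.04% in wild type. At 48 h 7 rose and none fell in the knockout, led by Pfkp at 0.51, beside 19.4% of all genes up and 9.47% down. In wild type 5 rose and 2 fell, led by Pfkp at 1.02, beside 20.5% up and 15.7% down. The median of the list at 48 h was 0.16 in the knockout and 0.08 in wild type.

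Counted by overlap alone, the dishes of 5 members in the knockout and 3 in wild type did not overlap between 24 h and basal, beside 9.32% and 10.5% of all tested genes. At 48 h 4 members in each genotype did not overlap with basal, beside 18.7% and 19.7%. Without replicates 3 to 5 of the 48 h groups, the rises at 48 h over basal were 1.18 and 0.95 for Nefl, 1.28 and 1.18 for Nefm, 0.91 and 0.73 for Nefh and 1.23 and 1.30 for Eno2 in the knockout and wild type, all still past the threshold. The 48 h level of Nefh averaged 0.61 in knockout replicates 1 and 2 and 0.22 in replicates 3 to 5, while in wild type these means were -0.10 and 0.08.

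The second day was read by setting 48 h against 24 h. In the knockout 3 of 9 members rose, beside 9.84% of all genes called and 7.49% called as rising: Nefl by 0.32 ± 0.10 (adjusted p = 0.0355), Nefm by 0.31 ± 0.10 (adjusted p = 0.0488) and Eno2 by 0.41 ± 0.07 (adjusted p = 7.55e-04). In wild type 3 rose, beside 13.9% called and 8.32% called as rising: Nefm by 0.38 ± 0.10 (adjusted p = 0.0112), Nefh by 0.57 ± 0.17 (adjusted p = 0.0208) and Eno2 by 0.35 ± 0.07 (adjusted p = 0.00221). Eno2 alone had no overlap, beside 8.59% and 7.84% of all genes. Nefh in the knockout (0.42, adjusted p = 0.104) and Nefl in wild type (0.17, adjusted p = 0.246) did not pass, and the other members lay between -0.14 and 0.12. The Nefl call in the knockout was lost without any one of 24 h replicates 1, 3 and 4 and 48 h replicates 1, 3 and 5 (0.27 to 0.32, adjusted p = 0.0563 to 0.110). The Nefm call there was lost in 18 of the 30 fits without 1 dish, most of all without 48 h replicate 5 (0.24, adjusted p = 0.162). Wild-type Nefh lost its call without 24 h replicates 2 or 3 or 48 h replicates 3 or 4 (0.48 to 0.52, adjusted p = 0.0505 to 0.0744), and knockout Nefh gained one without 48 h replicate 4 (0.55, adjusted p = 0.0364). With the Gapdh ratio as a covariate, Nefl (0.24) and Nefm (0.27) in the knockout and Nefm (0.34) and Nefh (0.70) in wild type did not pass (adjusted p = 0.483, 0.445, 0.129 and 0.0541). The knockout Nefm call held under 6 of 13 alternatives (0.14 to 0.49, adjusted p = 0.00550 to 0.580 over all 13). With 48 h replicates 1 and 2 alone, Nefl differed by 0.31 in the knockout (adjusted p = 0.178). There Nefm differed by 0.14 in the knockout and 0.16 in wild type (adjusted p = 0.580 and 0.529), Nefh by 0.46 in wild type (adjusted p = 0.278) and Eno2 by 0.27 in wild type (adjusted p = 0.166).

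Related genes are given by their counts at 48 h, beside the 28.9% of all genes called in the knockout (19.4% up, 9.47% down) and the 36.2% called in wild type (20.5% up, 15.7% down). Among 9 other tested tubulin genes 2 rose and 3 fell in the knockout at 48 h and 2 rose and 1 fell in wild type, with medians of -0.02 and -0.03. Tuba4a rose by 1.01 in the knockout and 0.88 in wild type (adjusted p = 2.19e-11 and 4.31e-10), while Tubb5 fell by 0.17 and 0.26 and, in the knockout, the embryonic isotype gene Tubb2b by 0.22. Of 14 microtubule-associated and stathmin genes 4 rose and 3 fell in the knockout and 6 rose and 2 fell in wild type. Mapre3, a plus-end tracking protein, was first in both, at 0.60 and 0.78. The dendritic gene Map2 rose by 0.75 ± 0.20 in wild type and differed by 0.01 ± 0.20 in the knockout, short of the threshold (adjusted p = 0.968). Dcx, the doublecortin of young migrating neurons, fell by 0.28 in the knockout and 0.24 in wild type.

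Motor genes for axonal transport rose in part: 6 of 17 up and 1 down in the knockout, 6 up and none down in wild type, among them the kinesin Kif3b at 0.42 and 0.47 and Klc1 at 0.27 and 0.33. Of 18 growth cone and actin genes 5 fell and none rose in the knockout, and 5 fell and 2 rose in wild type, with Basp1 at -0.24 and -0.22 and Tmsb10 at -0.23 and -0.20. Of 6 other intermediate filament genes 3 fell in each genotype, Lmnb1 by 0.42 and 0.67, Lmnb2 by 0.36 and 0.35 and Vim, the filament of progenitors, by 0.21 in both; Lmna rose by 0.37 in wild type. Of 10 spectrin and ankyrin genes 1 rose and 1 fell in the knockout, and 3 rose in wild type, among them Ank3 at 0.75. Of 16 kinase and phosphatase genes that act on the cytoskeleton 7 rose and 2 fell in each genotype, led by Ppp2r2b at 0.53 and 0.55. With both directions counted together, several of these lists, such as the growth cone and spectrin genes, had shares of called genes close to those of all genes. By direction the growth cone list leaned down with median scaling. In each genotype 5 of its 18 genes fell, beside 9.47% and 15.7% of all genes in the knockout and wild type. None rose in the knockout and 2 in wild type, beside 19.4% and 20.5% of all genes. The lists were not fitted in the signals as deposited, where the median of all genes at 48 h stood at 0.293 and 0.335. As for Ina, falls at 48 h are thus relative to the other genes on the array.

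Markers of cell types were also compared between 48 h and basal dishes, which differ in BDNF and in culture age together. Of all tested genes 28.9% were called in the knockout (19.4% up, 9.47% down) and 36.2% in wild type (20.5% up, 15.7% down). With both directions counted together, the knockout counts of the vascular and meningeal and the dividing lists lay near or under that share. Of 13 neuronal genes outside the cytoskeleton 6 rose and none fell in the knockout at 48 h, and 7 rose and 1 fell in wild type, with Vsnl1 at 1.13 and 1.33, Snap25 at 0.72 and 0.82 and Thy1 at 0.54 and 0.70. The summed signal of this list, in multiples of the array median, was 247 to 258 in knockout basal, 243 to 277 in 24 h and 274 to 298 in 48 h dishes, and 266 to 289, 269 to 294 and 282 to 330 in wild type. Of 12 progenitor genes 4 fell in the knockout and 6 in wild type, and none rose. At 48 h the smooth muscle gene Acta2 of the vascular and meningeal list fell by 0.63 in the knockout and 0.71 in wild type; the list had 2 of 9 tested genes down and none up in the knockout, and 3 down and 1 up in wild type. Its sum was 202 to 233 at 48 h against 238 to 292 in basal knockout dishes, and 104 to 125 against 143 to 157 in wild type, without overlap. The lysosomal and microglial gene Cd68 rose by 1.42 and 1.87, but Tyrobp and Csf1r of the microglial list fell in wild type, by 0.75 and 0.36. The microglial sum overlapped between 48 h and basal dishes. Of the astrocyte genes Aldh1l1 rose by 0.95 and 0.76, Gja1 fell by 0.23 and 0.30, and Aldoc fell by 0.34 in wild type. The astrocyte sum was 47.4 to 54.3 at 48 h against 52.7 to 61.8 in basal knockout dishes. In wild type it was 34.8 to 46.8 against 43.4 to 52.7. Of 7 tested genes of dividing cells 1 rose and 1 fell in the knockout, and 4 fell in wild type. The progenitor sum was 154 to 172, 129 to 145 and 142 to 159 in the knockout and 152 to 197, 140 to 173 and 156 to 179 in wild type. The part of cell composition in the changes of the 10 genes was not tested.

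**Figure D4:**
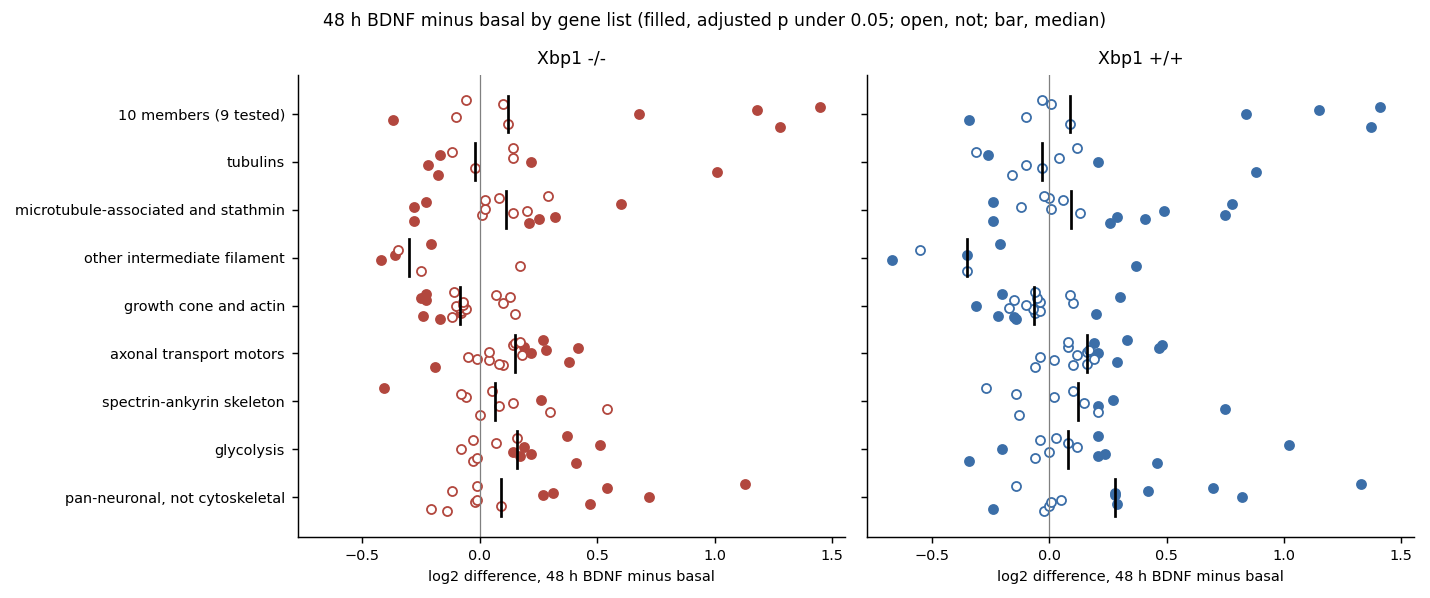
Log2 difference between 48 h of BDNF and basal (horizontal axis) for the 9 tested members and for lists of related genes, with Xbp1 -/- on the left and Xbp1 +/+ on the right; each point is a gene, filled where its adjusted p is under the threshold, and bars are medians. Nefl, Nefm and Eno2 lie at 1.15 to 1.45, Tuba4a at 1.01 and 0.88 and Vsnl1 at 1.13 and 1.33.

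Knockout and wild type were then compared at each time. Without BDNF 1 of 9 members differed, Nefh, beside 27.9% of all tested genes called. At 24 h 2 differed, Nefh and Eno2, beside 26.2%, and at 48 h 1 differed, Eno2, beside 24.1%. With median scaling these shares of members lie under those of all genes. By quantile normalization 2, 4 and 3 of 9 members passed at basal, 24 h and 48 h, beside 25.0%, 20.0% and 21.2% of all genes, so that at 24 h and 48 h the members' share lay above. The part of called genes that were higher in the knockout was 33.0%, 32.2% and 40.2% with median scaling, against 46.7%, 51.4% and 53.2% by quantile normalization and 73.4%, 83.4% and 65.4% in the signals as deposited. The members' median was -0.03, -0.01 and -0.05 at basal, 24 h and 48 h, and that of all genes -0.091, -0.095 and -0.073.

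Without BDNF, Nefh was 0.53 ± 0.17 higher in the knockout (1.45-fold, adjusted p = 0.0162), and at 24 h it was 0.52 ± 0.17 higher (1.43-fold, adjusted p = 0.0200). At 48 h the difference was 0.37 ± 0.17 and did not pass (adjusted p = 0.107). Basal knockout dishes, from -0.51 to -0.05, lay above all wild-type dishes, from -0.97 to -0.66, the one genotype difference of a member without overlap, where 18.9% of all genes had none. At 24 h knockout dishes at -0.26 to 0.20 overlapped wild-type dishes at -0.94 to 0.00 through wild-type replicate 5. Leaving out knockout basal replicate 3 gave 0.47 (adjusted p = 0.050), and leaving out replicate 3 of either 24 h group gave 0.46 and 0.43, short of the threshold, for the knockout and the wild-type dish. At 48 h leaving out knockout replicate 4 gave 0.50 (adjusted p = 0.0281). Nefh lies on chromosome 11 with 9 protein-coding genes between it and Xbp1. Of the 10 protein-coding genes on each side of Xbp1, Nefh left out, 8 were tested; 3 were called without BDNF and at 24 h, 2 higher and 1 lower in the knockout, and 4 at 48 h, 2 higher and 2 lower. For 100 on each side the called shares were 28.4%, 29.6% and 32.1% of 81 tested genes. The part of chromosomal position in the Nefh difference was not tested.

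Eno2 was lower in the knockout by 0.34 ± 0.07 at 24 h (0.788-fold, adjusted p = 5.94e-04) and by 0.28 ± 0.07 at 48 h (0.825-fold, adjusted p = 0.00497). The basal difference of -0.19 ± 0.07 was short of the threshold (adjusted p = 0.0556), and passed in 5 of 30 fits without 1 dish (-0.22 to -0.19, adjusted p = 0.0391 to 0.0486). The dishes of the genotypes overlapped at all 3 times, at 24 h through knockout replicate 5 at 2.92 and wild-type replicate 2 at 2.90. In the deposited signals without median scaling the differences of -0.18 and -0.25 at these times both lost their calls (adjusted p = 0.354 and 0.145), and with 48 h replicates 1 and 2 alone the 48 h difference was -0.25 (adjusted p = 0.183). Other glycolysis genes were lower in the knockout too, 7, 4 and 5 of 13 at basal, 24 h and 48 h, and none was higher, where 18.7%, 17.8% and 14.4% of all genes were called as lower. The medians of the list were -0.17, -0.14 and -0.11, beside the all-gene medians of -0.091, -0.095 and -0.073. Aldoc was the furthest, at -1.05, -1.09 and -0.75.

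The remaining members did not pass between genotypes. Nefl differed by 0.19, 0.07 and 0.22 at basal, 24 h and 48 h (adjusted p = 0.150, 0.610 and 0.102) and Nefm by 0.08, 0.19 and 0.12 (adjusted p = 0.610, 0.169 and 0.437). With quantile normalization, however, Nefl passed at basal (0.27) and 48 h (0.28), Nefm at 24 h (0.26) and Stmn2 at 24 h (0.21) and 48 h (0.18), all higher in the knockout. Tubb3 differed by -0.13, -0.06 and -0.16 (adjusted p = 0.160, 0.523 and 0.0963), and Ina, Gap43, Stmn2 and Mapt lay between -0.12 and 0.10. Of the other probe sets, Ina 1418178_at was lower in the knockout without BDNF, with -0.20 (adjusted p = 0.0276), and Mapt 1417885_at at 24 h with -0.25 (adjusted p = 0.0410).

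**Figure D5:**
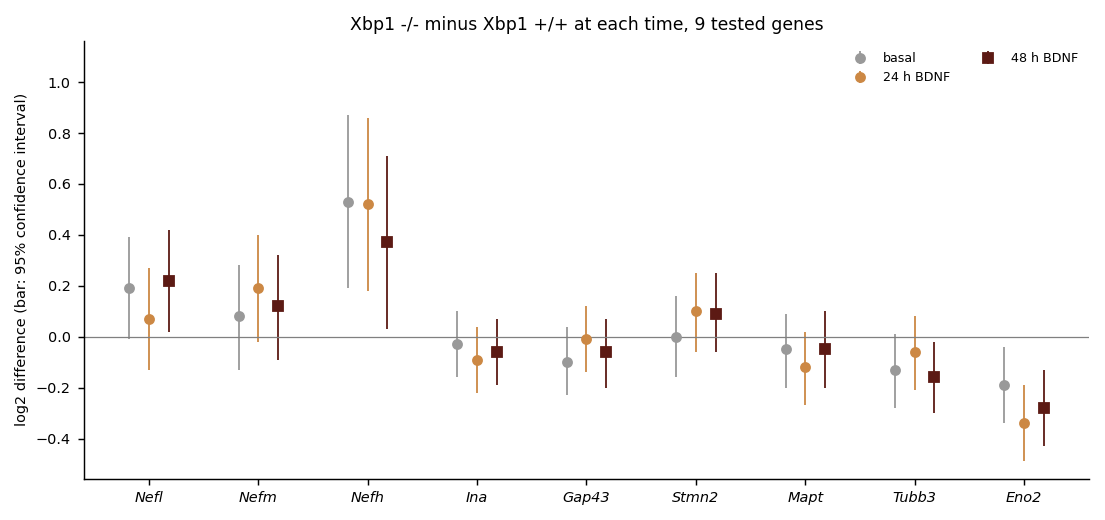
Log2 difference of Xbp1 -/- minus Xbp1 +/+ (vertical axis, bars 95% confidence intervals) for the 9 tested genes without BDNF and after 24 h and 48 h. Nefh lies at 0.53, 0.52 and 0.37, Eno2 at -0.19, -0.34 and -0.28, and the other genes within -0.16 and 0.22.

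Cultures of the genotypes also differed in markers of other cells. Of all tested genes 27.9%, 26.2% and 24.1% were called between genotypes at basal, 24 h and 48 h. All 9 tested vascular and meningeal genes differed at each of the 3 times, 8 higher in the knockout and Rgs5 lower, with medians of 0.97, 0.91 and 1.08. Their summed signal was 238 to 292 in knockout against 143 to 157 in wild-type basal dishes, 221 to 243 against 129 to 141 at 24 h and 202 to 233 against 104 to 125 at 48 h. The neuronal list summed to 247 to 258 in knockout against 266 to 289 in wild-type basal dishes, 243 to 277 against 269 to 294 at 24 h and 274 to 298 against 282 to 330 at 48 h. All 4 tested astrocyte genes differed without BDNF, Gja1 higher in the knockout by 0.76 and Aldoc, Aldh1l1 and Slc1a3 lower, at -1.05, -0.61 and -0.49; 3 differed at 24 h and 3 at 48 h. Of 12 progenitor genes 4 were higher and 5 lower without BDNF, among them Id3 at 1.42 and Sox2 at -0.55, 4 and 5 at 24 h, and 5 and 3 at 48 h. Among the tubulins Tubb6 was higher in the knockout by 1.43, 1.67 and 1.62 and Tuba4a lower, at -0.92, -0.86 and -0.79. The motor gene Dync1i1 was lower at -0.76, -0.81 and -0.67 and the keratin gene Krt8 at -2.18, -2.14 and -2.07. The part of these cells in the differences of Nefh and Eno2 was not tested.

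Whether the genotypes responded differently was tested as a difference of responses. No member passed at 24 h or 48 h, where limma called 7 and 10 of the 7436 genes (0.0941% and 0.134%), and 455 and 515 had an unadjusted p under 0.05, none of them a member. The response of Nefl differed between knockout and wild type by -0.12 at 24 h (95% interval -0.40 to 0.16) and 0.03 at 48 h (-0.25 to 0.31), and that of Nefm by 0.11 (-0.18 to 0.41) and 0.04 (-0.25 to 0.33). Nefh gave -0.01 (-0.49 to 0.47) and -0.16 (-0.64 to 0.32), the widest intervals of the 9. Eno2 gave -0.16 (-0.37 to 0.05) and -0.09 (-0.30 to 0.12). Ina gave -0.06 and -0.03, with intervals from -0.24 to 0.16. Smaller differences in response than these intervals allow were not detectable with 5 dishes per group.

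The profiles of the members over the 6 group means were last compared with each other and with all tested genes, each profile centred on its own mean, by the root mean square difference in log2 units. The measure describes 6 points that share arrays and basal groups. Nefl and Nefm differed by 0.121, less than Nefl and Eno2 at 0.227 or Nefl and Nefh at 0.319, and Nefl and Ina by 0.657. Mapt and Tubb3 differed by 0.050 and Gap43 and Stmn2 by 0.097, both less than Nefl and Nefm. These genes span little, and flat profiles are close by this measure whatever their shape. Outside the members, the genes nearest to Nefl were Vsnl1, a neuronal calcium sensor (0.063), Lifr, the leukaemia inhibitory factor receptor (0.070), and Srxn1, sulfiredoxin (0.082). Those nearest to Nefm were Vsnl1 (0.114), the vasopressin gene Avp (0.119) and Cgref1 (0.127). Nefh was nearest to the amino acid transporter gene Slc7a3 (0.085), the granin Chgb (0.098) and Srfbp1 (0.103). Eno2 was nearest to Nrip3 (0.119), the DNA repair gene Ercc1 (0.122) and the AMPA receptor auxiliary gene Cnih3 (0.123). At 48 h Vsnl1 differed from basal by 1.13 in the knockout and 1.33 in wild type, and Lifr by 1.10 in both.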

How the data were processed

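Each of 30 dishes had an array of its own (Affymetrix GeneChip Mouse Genome 430A 2.0, 22690 probe sets). The deposited values are linear signal intensities, computed with MAS5 per the submitters' processing notes. A later division by the array median, named in the design text, is not visible in the deposited intensities, so each array was divided by its median, given a floor of 0.1 and put on the log2 scale. A single symbol was given for 20393 probe sets, several for 691 and none for 1606; the brightest single-symbol probe set stood for each of 12394 genes, and the upper 60% by mean, 7436, were tested. Symbols come from the platform annotation, chromosomes and promoters from RefSeq (GRCm38.p6).

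One limma 3.58.1 model (R 4.3.3) with a mean per group, fitted to all arrays with an intensity trend, gave 11 two-sided comparisons. P-values were adjusted by Benjamini-Hochberg over all tested genes, with a threshold of 0.05; "rose", "fell", "higher" and "lower" name genes past it, and "called" means the same. Members, lists and their rules were chosen with earlier results of these data known. A list gene named for its change was among the 4 largest past the threshold of its list in a comparison described. Not all such genes are named. Each member spanning at least 0.5 log2 names its 3 nearest profiles. Figures used matplotlib 3.10.9. The procedure was tested on simulated data. Alternatives were other scalings, a pseudocount, other filters, other probe set rules, fewer arrays, a replicate block, the Gapdh ratio as a covariate and leaving out each array in turn. No identical arrays were found. The number of arrays limits the precision.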

Additional observations from a re-analysis of the deposited data

Results flagged for a closer look

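In 6 of 54 sets of 5 dishes, 1 dish lay far from the other 4, with a gap to its nearest neighbour above the 95% critical value of Dixon's test; chance gives about 1 in 20. The low dishes were wild-type basal replicate 5 for Nefm (1.62, nearest 1.89), knockout 24 h replicate 1 for Gap43 (6.17, nearest 6.43) and the same dish for Tubb3 (4.30, nearest 4.47). The high dishes were knockout basal replicate 5 for Ina (5.45, nearest 5.31), knockout 48 h replicate 5 for Stmn2 (6.18, nearest 5.95) and knockout 48 h replicate 4 for Eno2 (3.36, nearest 3.18). Gap43 without its low dish rose by 0.26 at 24 h in the knockout.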

How the results depend on the processing

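The rises of Nefl, Nefm and Eno2 at 24 h and 48 h over basal and of Nefh at 48 h kept their call in both genotypes under every alternative in which they were tested and in all 30 fits without 1 dish. Counts of called members changed elsewhere. With quantile normalization 9 passed at 48 h against basal in the knockout, 1 at 48 h against 24 h in the knockout, and 2, 4 and 3 between knockout and wild type at basal, 24 h and 48 h. Scaling to the 75th percentile gave 2 at basal and 2 at 48 h between genotypes. Values as deposited gave 3 at 24 h and 5 at 48 h against 24 h in the knockout, 8 at 48 h against 24 h in wild type, and 1 at 24 h and 0 at 48 h between genotypes; there Tubb3 rose by 0.28 in wild type at 48 h over basal and Gap43 by 0.29 at 48 h over 24 h, opposite to their main signs. The second-day count in the knockout was 1 with no filter, with the Gapdh covariate and with 48 h replicates 1 and 2 alone; in wild type it was 1 with the covariate and 0 with those replicates, which also gave 0 between genotypes at 48 h. The upper 40% of genes, which leaves out Nefh, gave 0 at basal and 1 at 24 h between genotypes.

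Fitting the replicate number as a block gave 2 called members between genotypes at basal and 2 at 48 h. The added calls were Eno2 at basal (-0.19, limma adjusted p = 0.0491) and Nefl at 48 h (0.22, adjusted p = 0.0397). Mapt then also passed in the knockout at 24 h (-0.20, adjusted p = 0.0472). The labels give no meaning to the number. In 0 of 15 pairs of groups were all correlations of deviations over 0.1 (23 of 75 same-numbered pairs were), so the numbers were not used as pairs. That rule is strict and does not show that the numbers carry no structure. As a hint from the data, 15 of 30 dishes correlated best with a dish of their own number, though most candidates had another number. Whether dishes of the same number share a source was not tested. Leaving out 1 dish gave 4 to 6 and 5 to 6 called members at 24 h and 48 h over basal and 1 to 3 on the second day in the knockout, 3 to 4, 5 and 2 to 3 in wild type, and 1 to 2 between genotypes at each time. Between genotypes the second call was Tubb3 without knockout basal replicate 5 (-0.19) or, at 48 h, wild-type replicate 1 (-0.20), Nefh at 48 h without knockout replicate 4 (0.50), and Eno2 at basal without wild-type basal replicate 1 (-0.21), wild-type 24 h replicates 1 or 2 or wild-type 48 h replicate 1 (-0.19 each). Ina in wild type at 24 h lost its call in 5 of these 30 fits (without basal replicates 1, 2 or 5 or 24 h replicates 2 or 3; -0.14 to -0.19). Single-gene results outside these fits kept their side of the threshold in 1117 cases, passed it newly in 38, no longer passed in 29 and turned in 2; 50 values that passed in neither fit changed sign, none larger than 0.21. No detection calls were used, so low signals such as Prph have no lower bound.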
